A study of Homo sapiens with 60 samples.

Results

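Expression of the 36 aminoacyl-tRNA synthetase genes was measured in MDA-MB-231 cells treated with BAY2506856. The members are the 20 genes of the cytosolic enzymes and 16 genes of the mitochondrial enzymes, found by symbol among the 38342 gene names of the deposited table. All 36 were in the table, under their older symbols (AARS for the gene now named AARS1, for example), and all 36 passed the filter on low values. MDA-MB-231 is an established human breast cancer cell line without estrogen receptor, progesterone receptor or ERBB2 amplification. BAY2506856 is a compound known here only by its code name. Cells were given the solvent DMSO alone or BAY2506856 at 100, 300 or 1000 nM and were labelled with 1, 3, 6 or 24 h of treatment. The design text gives harvest at 24 h only, while the labels give all 4 times. Each of the 4 DMSO groups held 6 libraries and each of the 12 treated groups held 3, which makes 60 libraries in 16 groups. The 3 doses of one time were compared with the same 6 DMSO libraries. The labels do not say whether the libraries of a group came from separate cultures, and the p-values therefore cover only the differences among these samples, which may be technical.

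Aminoacyl-tRNA synthetases attach each amino acid to its tRNA and so supply the ribosome with substrates. Cytosol and mitochondria use largely separate enzymes, and both sets are encoded in the nucleus. Several cytosolic enzymes are held together in the multi-synthetase complex by the scaffold proteins AIMP1, AIMP2 and EEF1E1. Many cytosolic synthetase genes are textbook targets of ATF4, the transcription factor of the amino acid response, and MYC binds the promoters of many genes of protein synthesis.

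Libraries ranged from 0.475 to 86.5 M recovered reads (median 11.2 M), of which the 36 members together drew 2082 to 283842. Levels are in FPKM, reads per kilobase of gene and per M counted reads, so genes can be compared with each other. The mesenchymal genes VIM (397 to 642 FPKM) and CD44 (104 to 182 FPKM), which MDA-MB-231 is known to express, were high in every library, while ESR1 stayed at or below 0.00263 FPKM and the leukocyte gene PTPRC at or below 0.101 FPKM. Of the other luminal and receptor genes examined, PGR stayed at or below 0.0128 FPKM and CDH1 at or below 1.09. KRT19 was high in every library (80.6 to 319.5 FPKM), and EPCAM (4.43 to 16.3) and ERBB2 (4.76 to 10.6) were present. By the levels of 11 pseudogenes and MT-ND6 there were 3 types of library, which no label names, with 41 libraries of the first, 13 of the second and 6 of the third. The second type held 2 of the 3 libraries at 1000 nM 24 h (replicates 1 and 3), 1 of 3 at 300 nM 24 h (replicate 2), 0 of 3 at 100 nM 24 h and 1 of 6 in DMSO at 24 h (replicate 2). The 3 libraries under 2 M reads were DMSO 24 h replicate 2, 300 nM 24 h replicate 2 and 1000 nM 3 h replicate 2. Calls that differ within the first type, or without 1 library, are given in the account of each time and gene.

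Among the DMSO libraries at 24 h, TARS, which charges tRNA with threonine, had the highest median of the members at 74.8 FPKM (70.4 to 91.0). IARS2, the mitochondrial isoleucine enzyme, came next at 58.9 FPKM (56.4 to 66.0), the highest of the mitochondrial members. GARS (51.6 FPKM), the glycine enzyme of both compartments, and IARS (48.5 FPKM), the cytosolic isoleucine enzyme, followed. Apart from IARS2, the mitochondrial members lay at 9.92 FPKM or less, and CARS, the cysteine enzyme, was the 1 cytosolic member in that range, at 6.38 FPKM. The lowest member was SARS2, the mitochondrial serine enzyme, at 0.721 FPKM. Of the 35 neighbouring pairs in this order, 30 had overlapping ranges, so only 5 steps in the order exceeded the spread between libraries. These steps lay below TARS, NARS, WARS, YARS and VARS2.

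**Figure D1:**
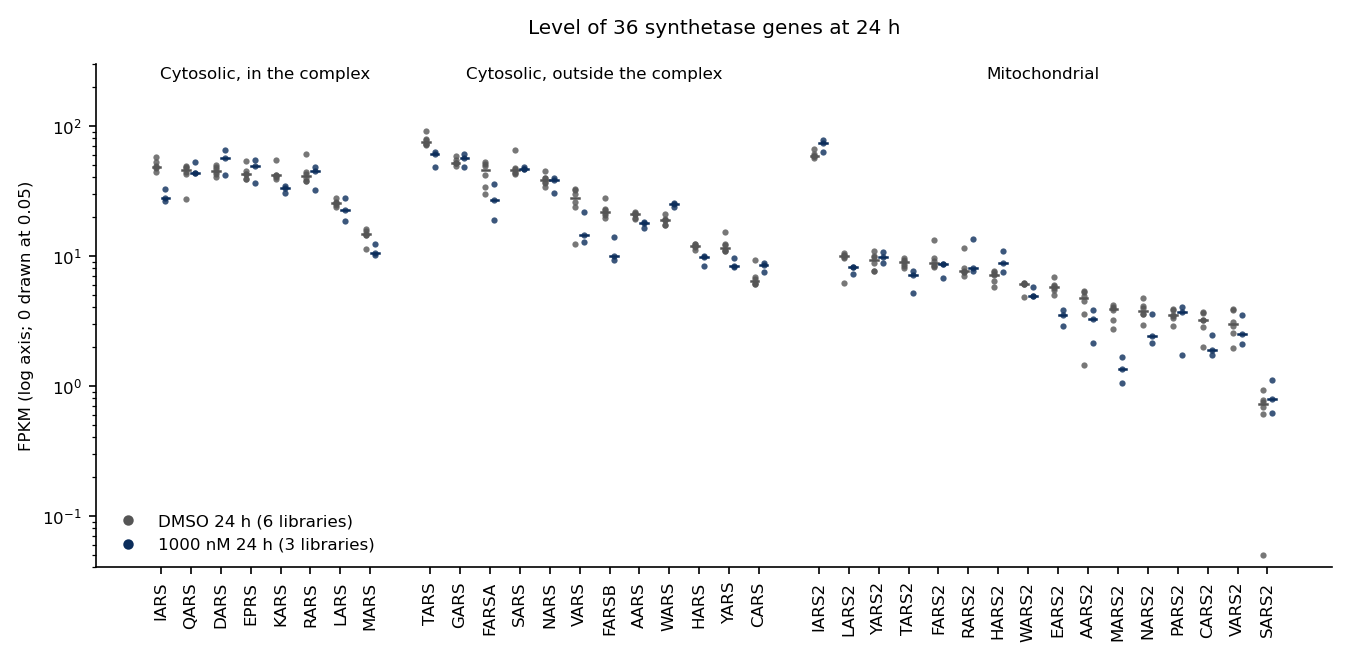
Level of each of the 36 members at 24 h in FPKM on a log axis, with 1 point per library and a dash at the median, for DMSO (6 libraries) and 1000 nM BAY2506856 (3 libraries). The SARS2 value of 0 is drawn at 0.05. The cytosolic members lie mostly above the mitochondrial ones, with IARS2 and CARS as the exceptions, and the 1000 nM points of FARSB, IARS and MARS2 lie below all of their DMSO points.

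Promoter sequences are shown for 5 members, each picked for a motif or a shared window, with matches to the searched motifs in capitals. Other members with large changes, such as FARSB and WARS, are not shown. They are RefSeq sequences on GRCh38.p14, from the window of 250 bases before to 50 bases after the annotated start, written 5′ to 3′ on the strand of the gene. The MARS2 stretch is chr2:197705219-197705388 (plus strand), the EARS2 stretch is chr16:23557356-23557475 (minus strand) and the IARS stretch is chr9:92293678-92293897 (minus strand). These 3 hold the E-box CACGTG. The HARS2 stretch is chr5:140691355-140691474 (plus strand) and is shown because the divergent neighbour HARS shares its window, and the GARS stretch is chr7:30594808-30594897 (plus strand), with the amino acid response motif.
MARS2: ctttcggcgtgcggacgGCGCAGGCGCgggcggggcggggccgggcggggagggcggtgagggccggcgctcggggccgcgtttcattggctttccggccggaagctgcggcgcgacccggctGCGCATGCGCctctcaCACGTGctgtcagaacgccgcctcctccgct
EARS2: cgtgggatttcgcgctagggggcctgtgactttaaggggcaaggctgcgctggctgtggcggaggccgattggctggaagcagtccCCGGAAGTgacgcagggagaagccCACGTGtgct
IARS: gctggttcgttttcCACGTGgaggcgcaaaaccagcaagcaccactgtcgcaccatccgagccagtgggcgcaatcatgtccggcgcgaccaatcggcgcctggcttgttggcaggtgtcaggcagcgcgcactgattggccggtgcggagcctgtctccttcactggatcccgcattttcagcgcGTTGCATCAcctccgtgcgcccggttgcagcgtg
HARS2: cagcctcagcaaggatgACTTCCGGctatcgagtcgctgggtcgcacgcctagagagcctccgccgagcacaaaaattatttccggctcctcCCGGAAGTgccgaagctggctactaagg
GARS: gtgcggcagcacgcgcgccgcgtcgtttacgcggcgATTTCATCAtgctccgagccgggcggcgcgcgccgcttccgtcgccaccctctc

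The motifs searched, on both strands, were CACGTG (the E-box bound by MYC with MAX), TGATGNAAN (the C/EBP-ATF response element bound by ATF4), CCGGAAGT (bound by ETS factors) and the paired half-sites of NRF1, with N for any base. RefSeq windows matched 30 of the 36 members. DARS, LARS, VARS, YARS, AARS2 and VARS2 were not matched. The E-box lay in 3 of the 30 windows (10%), against 7.26% of all 35116 windows. With 0 as the first transcribed base, it began at -11 in MARS2, at 10 in EARS2 and at -186 in IARS. The C/EBP-ATF element lay in 6 windows (20%), those of AARS, GARS, IARS, MARS, NARS and YARS2, against 3.61% of all windows. CCGGAAGT lay in 6 windows (20%), those of EARS2, HARS, HARS2, NARS, PARS2 and TARS, against 4.14%. The NRF1 motif lay in 6 windows (20%), those of FARSB, IARS2, MARS2, PARS2, SARS and TARS, against 5.78%. In the printed stretches no match overlaps one of another motif, and these matches are a description of letters only. HARS and HARS2 start 85 bases apart on opposite strands and their windows share 184 bases.

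At 1 and 3 h no member was called at any dose. Genes were called at a Benjamini-Hochberg adjusted p from limma under 0.05 over the 15866 genes tested. On simulated data with the depths of these libraries, more of the limma calls were false than this threshold allows. Log2 changes are on the log2(FPKM + 0.5) scale, which understates the change of low genes. At 1 h the calls over all genes were 0% at each dose, with 0, 0 and 2 members at an unadjusted p under 0.05 at 100, 300 and 1000 nM, beside 809, 192 and 1637 of all genes. At 3 h the calls over all genes were 0.0693% at 100 nM, 0.126% at 300 nM (0.101% lower, 0.0252% higher) and 0.132% at 1000 nM (0.107% lower, 0.0252% higher), with 0, 1 and 2 members at an unadjusted p under 0.05 beside 933, 933 and 1176 genes. The voom fit on recovered reads likewise called 0 members at both times, whereas array weights called 19 members at 1000 nM 1 h and 6 to 8 at each dose at 3 h. Array weights raised the calls over the whole table too. They called 6380 of 15866 genes at 1000 nM 1 h and 3694, 3059 and 3803 at 100, 300 and 1000 nM 3 h. The log2 changes at 1000 nM ran from -0.43 for VARS2 to 0.22 for RARS2 at 1 h and from -0.38 for SARS2 to 0.27 for TARS2 at 3 h. VARS2, RARS2, SARS2 and TARS2 are the mitochondrial valine, arginine, serine and threonine enzymes.

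At 6 h MARS2, the mitochondrial methionine enzyme, fell at 300 and 1000 nM and was the only member called. It measured 2.63 to 4.89 FPKM in the 6 DMSO libraries with a median of 4.42, against 3.46, 2.88 and 3.15 at 100 nM, 1.70, 2.71 and 3.13 at 300 nM and 2.84, 2.65 and 2.33 at 1000 nM. The groups overlap only because DMSO 6 h replicate 5, a library of the second type, was low. The other 5 DMSO libraries lay at 4.33 FPKM or above. The lowest treated value, 1.70 FPKM in 300 nM 6 h replicate 1, also came from a library of the second type. MARS2 fell by 0.65 ± 0.15 (log2, limma SE) at 300 nM with an adjusted p of 0.00922 and by 0.58 ± 0.15 at 1000 nM with an adjusted p of 0.0245. The change at 100 nM was -0.34 with an adjusted p of 0.793. Calls over all genes were 0.863% at 100 nM, 1.67% at 300 nM and 2.01% at 1000 nM (1.11% lower and 0.561% higher at 300 nM, 1.3% lower and 0.706% higher at 1000 nM), and 1 of 36 members was called at each of the upper doses. The 1000 nM call was lost without any one of the 3 treated libraries (adjusted p 0.0611 without replicate 1, 0.106 without replicate 2 and 0.234 without replicate 3) or without DMSO 6 h replicate 2, 3 or 4 (0.0646, 0.0509 and 0.0525). Within the first type 2, 2 and 3 members were called lower at 100, 300 and 1000 nM, and with type terms 2, 3 and 2. Over all 15866 genes the first type called 535, 767 and 1222 and type terms 345, 742 and 738. The fit above called 137, 265 and 319. The 300 nM call was lost without its replicate 1, and with only the compared groups in the model the adjusted p was 0.212 at 1000 nM and 0.403 at 300 nM.

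At 24 h most called members were lower and most of these were cytosolic. At 100 nM 9 of 36 members fell (25%) and 1 rose (2.78%), where 19.7% of all genes were called, 9.2% lower and 10.5% higher. At 300 nM 14 fell (38.9%) and 2 rose (5.56%), where 30.7% of all genes were called, 14.2% lower and 16.5% higher. At 1000 nM 16 fell (44.4%) and 4 rose (11.1%), where 34.7% of all genes were called, 15.6% lower and 19.1% higher. By compartment, 8, 11 and 10 of the 20 cytosolic members fell at 100, 300 and 1000 nM, and 1, 3 and 6 of the 16 mitochondrial members. The cytosolic members that rose were WARS at 100 nM and WARS and CARS at 300 and 1000 nM, and the mitochondrial ones were HARS2 and IARS2 at 1000 nM. The median log2 change of the cytosolic members was -0.20, -0.26 and -0.20 at the 3 doses and that of the mitochondrial members -0.05, -0.09 and -0.21, beside 0.05, 0.05 and 0.03 over all genes tested. Every level is relative to the library total, so a change in the number of cells or in the RNA per cell is not seen.

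Calls were repeated with terms for the library types, in the first type alone, without the 3 shallow libraries and with voom on the recovered reads. At 100 nM all 8 cytosolic calls, MARS2 and WARS were made in all 4 of these settings. Other members were added there, with 14 cytosolic members lower, 3 cytosolic higher and 5 mitochondrial lower within the first type, and 4 mitochondrial lower with voom. Calls over all genes also moved. At 100 nM they numbered 5660 in the first type (3018 higher) and 3296 with voom (1477 higher). The main fit over all 60 libraries called 3122 (1662 higher). At 300 nM the 4 settings, in the order named, called 7080, 6798, 4305 and 6250 genes, beside 4864 in the main fit. Of the members at 300 nM, 10 of 11 lower cytosolic calls were made in all 4 settings (FARSA was not), as were the 3 mitochondrial calls and both higher ones. The lower mitochondrial members came to 5 in the first 3 settings and 8 with voom. At 1000 nM 8 of 10 lower cytosolic calls were (FARSA and VARS were not), 4 of 6 lower mitochondrial calls were (LARS2 and TARS2 were not), CARS and WARS were, and neither HARS2 nor IARS2 was. Without 100 nM 24 h replicate 2 the lower cytosolic calls at 100 nM went from 8 to 5, without its replicate 1 or 3 the MARS2 call there was lost, and without DMSO 24 h replicate 2 a second cytosolic member was called higher. Without 1000 nM 24 h replicate 3 the lower mitochondrial calls at 1000 nM went from 6 to 3. With only the compared groups in the model, which leaves fewer libraries to estimate the spread, 6 cytosolic members were called lower at each dose.

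**Figure D2:**
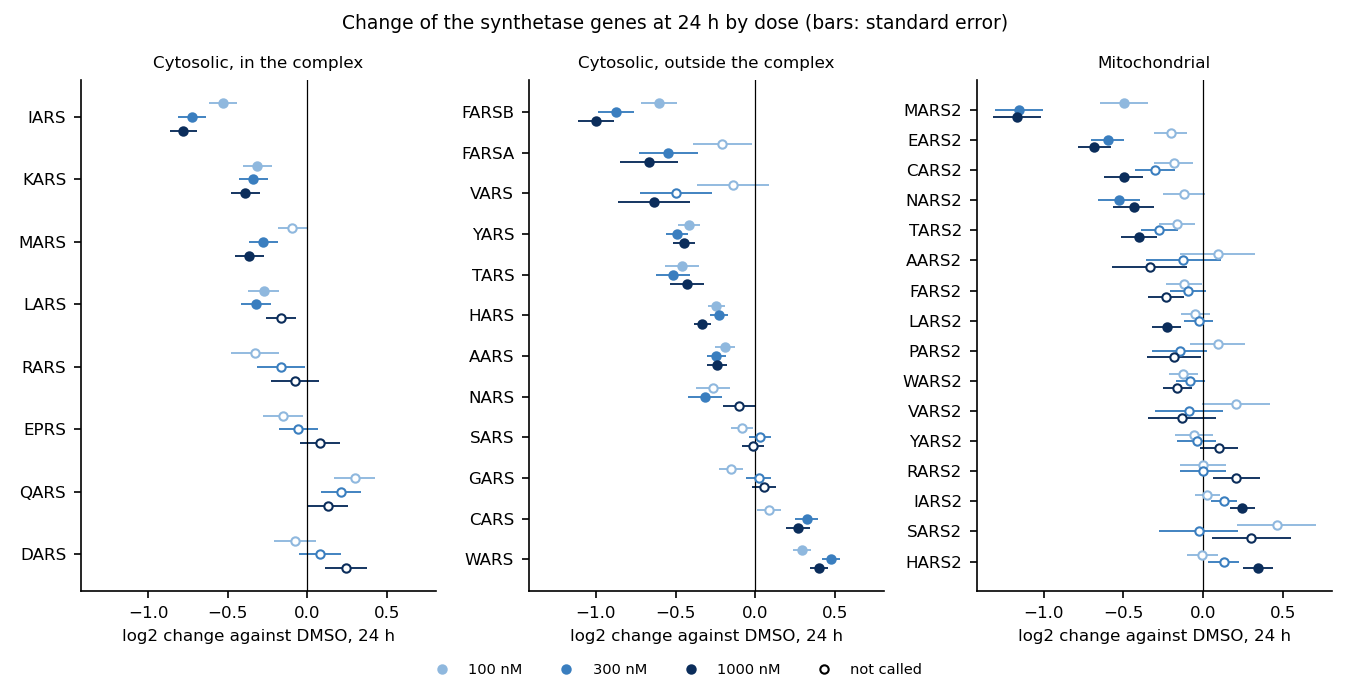
Log2 change against DMSO at 24 h for each of the 36 members at 100, 300 and 1000 nM, with bars for the limma standard error and open symbols for members not called. At 1000 nM FARSB has the lowest value of the cytosolic members, MARS2 (-1.17) that of the mitochondrial members, and WARS (0.40) the highest of the cytosolic ones.

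The multi-synthetase complex holds 8 of the listed gene products, DARS, EPRS, IARS, KARS, LARS, MARS, QARS and RARS. Of these 8, 3 fell at 100 nM, 4 at 300 nM and 3 at 1000 nM, and 0 rose, where 9.2%, 14.2% and 15.6% of all genes were called lower and 10.5%, 16.5% and 19.1% higher. IARS had the largest change. IARS measured 43.9 to 57.5 FPKM in the 6 DMSO libraries at 24 h with a median of 48.5, against 32.9, 33.2 and 36.2 at 100 nM, 27.9, 34.6 and 27.4 at 300 nM and 27.6, 26.2 and 32.5 at 1000 nM. The treated libraries all lay below all DMSO libraries. IARS fell by 0.53 ± 0.09, 0.72 ± 0.09 and 0.78 ± 0.09 on the log2 scale, with adjusted p of 8.35e-06, 3.71e-09 and 4.27e-10. At 1000 nM that is 41.7% below DMSO in FPKM + 0.5. Before 24 h, at 1, 3 and 6 h, IARS had medians of 48.8, 48.6 and 50.4 FPKM in DMSO, 51.4, 50.2 and 48.4 at 100 nM, 51.9, 52.5 and 50.3 at 300 nM, and 54.0, 51.9 and 47.0 at 1000 nM. Every treated group overlapped with DMSO at those times.

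KARS, the lysine enzyme, is made from 1 gene for both compartments. KARS measured 38.9 to 54.4 FPKM in the 6 DMSO libraries at 24 h with a median of 41.5, against 35.0, 32.9 and 35.1 at 100 nM, 33.7, 35.5 and 32.1 at 300 nM and 34.2, 30.2 and 33.4 at 1000 nM. No treated library reached the lowest DMSO library. KARS fell by 0.31 ± 0.09, 0.34 ± 0.09 and 0.39 ± 0.09 at 100, 300 and 1000 nM, with adjusted p of 0.0106, 0.00333 and 0.000627. Earlier, at 1, 3 and 6 h, the medians of KARS were 44.0, 44.7 and 45.4 FPKM in DMSO, 47.7, 48.6 and 41.9 at 100 nM, 45.6, 46.5 and 45.5 at 300 nM, and 50.6, 49.4 and 42.5 at 1000 nM. MARS, the cytosolic methionine enzyme, fell at the upper 2 doses only. MARS measured 11.2 to 15.9 FPKM in the 6 DMSO libraries at 24 h with a median of 14.6, against 14.2, 13.3 and 12.6 at 100 nM, 12.5, 10.3 and 12.4 at 300 nM and 10.6, 12.4 and 10.1 at 1000 nM. The groups overlap at every dose, since DMSO 24 h replicate 2 lay at 11.2 FPKM and the other DMSO libraries at 14.4 or above. The changes were -0.09 ± 0.09, -0.28 ± 0.09 and -0.36 ± 0.09, with adjusted p of 0.537, 0.0178 and 0.00143. The MARS medians at 1, 3 and 6 h were 15.4, 15.9 and 16.2 FPKM in DMSO, 15.6, 16.4 and 16.0 at 100 nM, 15.1, 15.8 and 15.7 at 300 nM, and 14.6, 16.3 and 15.3 at 1000 nM.

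EPRS, DARS and QARS, the enzymes for glutamate with proline, for aspartate and for glutamine, were not called at 24 h at any dose. EPRS measured 38.9 to 53.8 FPKM in the 6 DMSO libraries at 24 h with a median of 42.4, against 37.7, 38.6 and 40.4 at 100 nM, 37.5, 51.2 and 37.5 at 300 nM and 48.9, 36.3 and 54.0 at 1000 nM. DARS measured 40.6 to 49.9 FPKM in the 6 DMSO libraries at 24 h with a median of 45.1, against 39.3, 43.2 and 46.0 at 100 nM, 41.6, 62.7 and 41.5 at 300 nM and 56.2, 41.9 and 64.8 at 1000 nM. In both, the libraries of the second type at 300 nM (replicate 2) and 1000 nM (replicates 1 and 3) were the high ones. At 1000 nM the change was 0.08 for EPRS (95% interval -0.16 to 0.32) and 0.24 for DARS (-0.02 to 0.50). Within the first type alone these values were -0.19 and -0.07, of the opposite sign, and without 1000 nM 24 h replicate 2, the one library of the first type, DARS was called at 0.42 with an adjusted p of 0.0208. EPRS medians at 1, 3 and 6 h were 34.5, 34.5 and 35.3 FPKM in DMSO, 38.1, 35.8 and 36.0 at 100 nM, 37.0, 35.9 and 36.7 at 300 nM, and 42.1, 37.8 and 35.6 at 1000 nM. Before 24 h, at 1, 3 and 6 h, DARS had medians of 39.8, 39.4 and 37.7 FPKM in DMSO, 41.7, 41.4 and 37.9 at 100 nM, 40.6, 39.6 and 38.8 at 300 nM, and 48.8, 40.7 and 37.9 at 1000 nM. With type terms and array weights together, EPRS was called lower, at -0.13 with an adjusted p of 0.0211.

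QARS measured 27.5 to 49.0 FPKM in the 6 DMSO libraries at 24 h with a median of 45.7, against 51.5, 53.1 and 51.8 at 100 nM, 54.1, 40.6 and 53.8 at 300 nM and 43.5, 52.6 and 43.3 at 1000 nM. The 100 nM libraries lay above all DMSO libraries, and DMSO 24 h replicate 2 was again the low one. The QARS changes were 0.30, 0.21 and 0.13, with adjusted p of 0.0948, 0.223 and 0.471 and a 95% interval of -0.12 to 0.38 at 1000 nM. With terms for the library types QARS was called at 1000 nM, at 0.31 with an adjusted p of 9e-05, and with array weights the value was -0.06. Before 24 h, at 1, 3 and 6 h, QARS had medians of 43.3, 44.7 and 45.3 FPKM in DMSO, 39.3, 45.2 and 47.8 at 100 nM, 38.9, 46.0 and 48.6 at 300 nM, and 35.2, 44.8 and 49.4 at 1000 nM.

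Of the 3 scaffold genes of the complex, 2 fell at 1000 nM 24 h. EEF1E1, which also binds elongation factor eEF1, measured 8.13 to 10.3 FPKM in DMSO at 24 h with a median of 9.42, against 5.55, 4.52 and 6.38 FPKM at 1000 nM. AIMP2 measured 24.7 to 29.4 FPKM with a median of 25.2, against 17.6, 18.7 and 16.1 FPKM. Neither overlapped with DMSO. EEF1E1 fell by 0.71 (adjusted p 8.04e-05) and AIMP2 by 0.57 (adjusted p 7.02e-08), and AIMP1 at -0.17 was not called (adjusted p 0.445), where 15.6% of all genes were called lower.

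Of the 12 cytosolic members outside the complex, 7 fell and 2 rose at 1000 nM 24 h, where 15.6% of all genes were called lower and 19.1% higher. FARSB, the beta subunit of the phenylalanine enzyme, had the lowest value of all cytosolic members. FARSB measured 19.6 to 27.6 FPKM in the 6 DMSO libraries at 24 h with a median of 21.8, against 13.7, 13.9 and 15.9 at 100 nM, 11.2, 13.9 and 10.8 at 300 nM and 9.21, 9.93 and 14.0 at 1000 nM. All 9 treated libraries lay below all 6 DMSO libraries. FARSB fell by 0.60 ± 0.11, 0.88 ± 0.11 and 1.00 ± 0.11 at 100, 300 and 1000 nM, with adjusted p of 6.19e-05, 1.53e-08 and 4e-10, and the 1000 nM level was 50.1% below DMSO. Before 24 h, at 1, 3 and 6 h, FARSB had medians of 25.0, 25.9 and 25.8 FPKM in DMSO, 25.3, 25.2 and 23.7 at 100 nM, 24.9, 25.6 and 23.8 at 300 nM, and 26.7, 26.5 and 23.1 at 1000 nM. At 6 h the treated medians were all below the DMSO median, without a call.

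FARSA, the alpha subunit of the same enzyme, followed with a wider spread. FARSA measured 29.7 to 52.5 FPKM in the 6 DMSO libraries at 24 h with a median of 45.6, against 39.3, 37.0 and 33.0 at 100 nM, 34.5, 19.6 and 34.6 at 300 nM and 27.0, 35.6 and 18.8 at 1000 nM. The lowest treated values, 19.6 and 18.8 FPKM, came from libraries of the second type, and the groups overlap. The changes were -0.21 ± 0.18, -0.54 ± 0.18 and -0.67 ± 0.18, with adjusted p of 0.486, 0.0194 and 0.00334. Within the first type the 1000 nM value was -0.34 with an adjusted p of 0.118, and without 1000 nM 24 h replicate 3 it was -0.43 with an adjusted p of 0.11. The FARSA medians at 1, 3 and 6 h were 57.2, 57.1 and 56.0 FPKM in DMSO, 54.3, 60.8 and 52.8 at 100 nM, 52.2, 58.3 and 46.9 at 300 nM, and 42.9, 52.4 and 52.1 at 1000 nM.

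VARS, the cytosolic valine enzyme, was called at 1000 nM only. VARS measured 12.2 to 32.5 FPKM in the 6 DMSO libraries at 24 h with a median of 27.7, against 23.4, 22.2 and 21.9 at 100 nM, 20.0, 12.7 and 20.7 at 300 nM and 14.4, 21.5 and 12.7 at 1000 nM. Here too the lowest libraries of DMSO, 300 nM and 1000 nM were of the second type, and the groups overlap. The VARS changes were -0.14 ± 0.23, -0.50 ± 0.23 and -0.63 ± 0.23, with adjusted p of 0.732, 0.0893 and 0.0244. The 1000 nM call was lost within the first type (-0.40, adjusted p 0.0709), without 1000 nM 24 h replicate 1 or 3 (adjusted p 0.105 and 0.174) and without DMSO 24 h replicate 5 or 6 (0.0573 and 0.0581). VARS medians at 1, 3 and 6 h were 37.1, 36.3 and 35.9 FPKM in DMSO, 32.8, 35.7 and 35.5 at 100 nM, 36.8, 38.8 and 33.7 at 300 nM, and 26.0, 33.5 and 34.9 at 1000 nM.

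YARS, TARS, HARS and AARS, the cytosolic tyrosine, threonine, histidine and alanine enzymes, were the other free members called lower at 1000 nM. YARS measured 8.32, 8.20 and 9.53 FPKM against 10.8 to 15.3 in DMSO with a median of 11.5, a fall of 0.45 with an adjusted p of 1.12e-06. TARS measured 60.4, 48.2 and 63.1 FPKM against 70.4 to 91.0 in DMSO, a fall of 0.43 with an adjusted p of 0.00137. None of the 4 overlapped with DMSO, and the share of all genes without overlap was not counted. HARS measured 9.75, 10.0 and 8.29 FPKM against 11.1 to 12.4, and AARS 18.1, 16.3 and 17.8 FPKM against 19.3 to 21.8. Both fell, HARS by 0.33 (adjusted p 2.3e-06) and AARS by 0.24 (adjusted p 0.00137). All 4 were also called lower at 100 and 300 nM. NARS, the asparagine enzyme, was called lower at 300 nM only and LARS, the leucine enzyme of the complex, at 100 and 300 nM.

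WARS, the tryptophan enzyme and a known interferon-induced gene, rose at every dose at 24 h. WARS measured 17.3 to 20.8 FPKM in the 6 DMSO libraries at 24 h with a median of 18.7, against 22.4, 22.8 and 23.6 at 100 nM, 26.0, 26.9 and 25.3 at 300 nM and 25.0, 25.5 and 23.7 at 1000 nM. The 9 treated libraries lay above all DMSO libraries, including those of the second type. WARS rose by 0.29 ± 0.06, 0.48 ± 0.06 and 0.40 ± 0.06 on the log2 scale, with adjusted p of 0.000112, 3.18e-09 and 1.49e-07. At 1000 nM that is 32.0% above DMSO in FPKM + 0.5. The WARS medians at 1, 3 and 6 h were 18.4, 19.0 and 19.0 FPKM in DMSO, 19.9, 20.3 and 20.3 at 100 nM, 19.1, 21.1 and 20.1 at 300 nM, and 16.7, 19.4 and 20.5 at 1000 nM.

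CARS, the lowest cytosolic member, rose at the upper doses. CARS measured 6.03 to 9.26 FPKM in the 6 DMSO libraries at 24 h with a median of 6.38, against 7.04, 7.25 and 7.32 at 100 nM, 8.78, 8.23 and 8.74 at 300 nM and 8.47, 8.84 and 7.48 at 1000 nM. The groups overlap because DMSO 24 h replicate 2, the shallowest library, lay at 9.26 FPKM, while the other DMSO libraries reached 6.85 FPKM at most. The CARS changes were 0.09 ± 0.07, 0.32 ± 0.07 and 0.27 ± 0.07, with adjusted p of 0.455, 0.000431 and 0.00284. The CARS medians at 1, 3 and 6 h were 6.18, 6.12 and 6.14 FPKM in DMSO, 6.16, 5.82 and 6.61 at 100 nM, 6.22, 6.42 and 6.23 at 300 nM, and 5.99, 5.86 and 6.22 at 1000 nM. With only the compared groups in the model the 1000 nM call was lost, at an adjusted p of 0.23.

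GARS, which like KARS serves both compartments, was not called. GARS measured 49.1 to 58.2 FPKM in the 6 DMSO libraries at 24 h with a median of 51.6, against 46.3, 46.1 and 49.8 at 100 nM, 49.6, 63.2 and 48.7 at 300 nM and 56.3, 48.2 and 60.5 at 1000 nM. The high libraries at 300 nM (63.2) and 1000 nM (56.3 and 60.5) were those of the second type. At 1000 nM the GARS change was 0.06 with a 95% interval of -0.10 to 0.21 and an adjusted p of 0.62. It was of the opposite sign within the first type, at -0.10. Earlier, at 1, 3 and 6 h, the medians of GARS were 53.0, 57.4 and 57.4 FPKM in DMSO, 58.1, 57.4 and 53.9 at 100 nM, 56.5, 58.0 and 53.6 at 300 nM, and 59.7, 56.6 and 53.6 at 1000 nM.

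MARS2 had the largest fall of the mitochondrial members and of all 36. MARS2 measured 2.74 to 4.18 FPKM in the 6 DMSO libraries at 24 h with a median of 3.88, against 2.30, 2.58 and 2.38 at 100 nM, 1.41, 1.08 and 1.59 at 300 nM and 1.34, 1.65 and 1.05 at 1000 nM. Every treated library lay below every DMSO library. The lowest values, 1.08 at 300 nM (replicate 2) and 1.34 and 1.05 at 1000 nM (replicates 1 and 3), came from libraries of the second type. MARS2 was also low in the DMSO libraries of that type at 3 h (2.79 FPKM) and 6 h (2.63). With type terms MARS2 was still called lower at all 3 doses. MARS2 fell by 0.50 ± 0.15, 1.16 ± 0.15 and 1.17 ± 0.15 at 100, 300 and 1000 nM, with adjusted p of 0.0143, 2.39e-08 and 1.47e-08. At 1000 nM that is 55.6% below DMSO in FPKM + 0.5, which understates the fall in FPKM of a gene this low. MARS2 medians at 1, 3 and 6 h were 4.34, 4.85 and 4.42 FPKM in DMSO, 4.78, 4.19 and 3.15 at 100 nM, 4.88, 3.98 and 2.71 at 300 nM, and 4.06, 3.84 and 2.65 at 1000 nM. The level rests on 4 to 164 reads in DMSO and 8 to 153 reads at 1000 nM in a library.

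EARS2, the mitochondrial glutamate enzyme, was called at 300 and 1000 nM. EARS2 measured 4.97 to 6.89 FPKM in the 6 DMSO libraries at 24 h with a median of 5.73, against 5.03, 4.96 and 4.82 at 100 nM, 4.11, 2.75 and 4.20 at 300 nM and 2.90, 3.83 and 3.52 at 1000 nM. At these doses no treated library reached the DMSO range, while the 100 nM libraries overlap with it. The EARS2 changes were -0.20 ± 0.10 (adjusted p 0.185), -0.60 ± 0.10 (9.62e-06) and -0.68 ± 0.10 (7.24e-07). Earlier, at 1, 3 and 6 h, the medians of EARS2 were 5.96, 6.13 and 5.79 FPKM in DMSO, 5.80, 5.59 and 5.66 at 100 nM, 6.49, 6.16 and 5.20 at 300 nM, and 5.34, 5.51 and 5.22 at 1000 nM. EARS2 charges the mitochondrial glutamine tRNA with glutamate, which the amidotransferase of QRSL1, GATB and GATC then converts. QRSL1 fell by 0.45 at 1000 nM (adjusted p 0.00168), the 1 called gene of 4 tested for glutamine-tRNA and formyl-methionine-tRNA synthesis, and MTFMT, the formyltransferase that acts on the product of MARS2, was at -0.25.

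CARS2, the mitochondrial cysteine enzyme, was called at 1000 nM. CARS2 measured 1.98 to 3.68 FPKM in the 6 DMSO libraries at 24 h with a median of 3.19, against 2.51, 2.54 and 2.78 at 100 nM, 2.38, 2.34 and 2.39 at 300 nM and 1.72, 2.44 and 1.89 at 1000 nM. The groups overlap through DMSO 24 h replicate 2. The CARS2 changes were -0.19 ± 0.12, -0.30 ± 0.12 and -0.50 ± 0.12, with adjusted p of 0.337, 0.0634 and 0.00128. CARS2 medians at 1, 3 and 6 h were 3.20, 3.31 and 3.24 FPKM in DMSO, 2.81, 2.98 and 3.05 at 100 nM, 3.13, 3.12 and 2.80 at 300 nM, and 2.42, 2.76 and 2.92 at 1000 nM. NARS2, TARS2 and LARS2, the mitochondrial asparagine, threonine and leucine enzymes, fell by 0.44 (adjusted p 0.00688), 0.40 (0.0045) and 0.23 (0.0459) at 1000 nM. The NARS2 and TARS2 calls were lost without 1000 nM 24 h replicate 3 (adjusted p 0.119 and 0.15). TARS2 was at -0.16 (adjusted p 0.288) within the first type, and LARS2 lost its call without any one of 8 of the 9 compared libraries, the exception being DMSO 24 h replicate 2.

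HARS2 and IARS2, the mitochondrial histidine and isoleucine enzymes, were called higher at 1000 nM only. HARS2 measured 5.77 to 7.56 FPKM in the 6 DMSO libraries at 24 h with a median of 7.16, against 7.60, 6.48 and 6.61 at 100 nM, 6.98, 8.29 and 7.60 at 300 nM and 8.71, 7.51 and 10.8 at 1000 nM. IARS2 measured 56.4 to 66.0 FPKM in the 6 DMSO libraries at 24 h with a median of 58.9, against 59.3, 60.5 and 63.0 at 100 nM, 59.4, 77.6 and 61.0 at 300 nM and 73.8, 62.6 and 77.2 at 1000 nM. In both, the 1000 nM libraries of the second type (replicates 1 and 3) were the highest and replicate 2 overlapped with DMSO. HARS2 was 0.34 ± 0.10 higher with an adjusted p of 0.00393, and IARS2 0.25 ± 0.08 higher with an adjusted p of 0.0125. Within the first type the values were 0.13 (adjusted p 0.458) and 0.10 (0.326), so neither call holds there. Without 1000 nM 24 h replicate 3 the adjusted p was 0.134 for HARS2 and 0.128 for IARS2, and without replicate 1 it was 0.0746 for IARS2. HARS2 medians at 1, 3 and 6 h were 7.21, 7.41 and 7.62 FPKM in DMSO, 7.11, 5.85 and 7.48 at 100 nM, 7.01, 6.46 and 7.84 at 300 nM, and 6.81, 6.31 and 7.48 at 1000 nM. The IARS2 medians at 1, 3 and 6 h were 55.3, 54.2 and 56.0 FPKM in DMSO, 54.5, 53.5 and 54.3 at 100 nM, 56.6, 50.5 and 54.8 at 300 nM, and 56.4, 53.5 and 54.2 at 1000 nM.

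SARS2 was the weakest member and was not called. SARS2 measured 0 to 0.929 FPKM in the 6 DMSO libraries at 24 h with a median of 0.721, against 1.06, 0.931 and 0.937 at 100 nM, 0.817, 0.168 and 0.814 at 300 nM and 1.11, 0.785 and 0.612 at 1000 nM. DMSO 24 h replicate 2 held 0 SARS2 reads, and at its depth of 0.475 M a floor of 3 reads allows up to 1.95 FPKM, above every other library at 24 h, so no difference from that library was detectable. The floor covers counting error only. The SARS2 change was 0.30 ± 0.25 at 1000 nM with an adjusted p of 0.369. Earlier, at 1, 3 and 6 h, the medians of SARS2 were 0.891, 1.10 and 0.859 FPKM in DMSO, 0.944, 0.686 and 0.892 at 100 nM, 0.765, 0.822 and 0.672 at 300 nM, and 0.817, 0.782 and 0.831 at 1000 nM. The other 7 mitochondrial members were not called at 1000 nM either, with log2 changes from -0.34 for AARS2 to 0.21 for RARS2.

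Summed over a library, the 20 cytosolic members came to 656 to 745 FPKM in DMSO at 24 h (median 679.6) and to 559, 611 and 636 FPKM at 1000 nM. The 16 mitochondrial members came to 140 to 148 FPKM in DMSO (median 146) and to 138, 145 and 156 FPKM at 1000 nM. The cytosolic sums do not overlap and the mitochondrial sums do. The ratio of cytosolic to mitochondrial sum was 4.53 to 5.07 in DMSO at 24 h with a median of 4.67. It was 4.15 to 4.23 at 100 nM, 4.11 to 4.26 at 300 nM and 4.04 to 4.22 at 1000 nM, below every DMSO library of that time. At 1, 3 and 6 h the DMSO libraries had ratios of 4.61 to 5.46 and the treated libraries ratios of 4.75 to 5.56. IARS2 makes up much of the mitochondrial sum, and no test was made of these sums, because the members were chosen with results known.

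**Figure D3:**
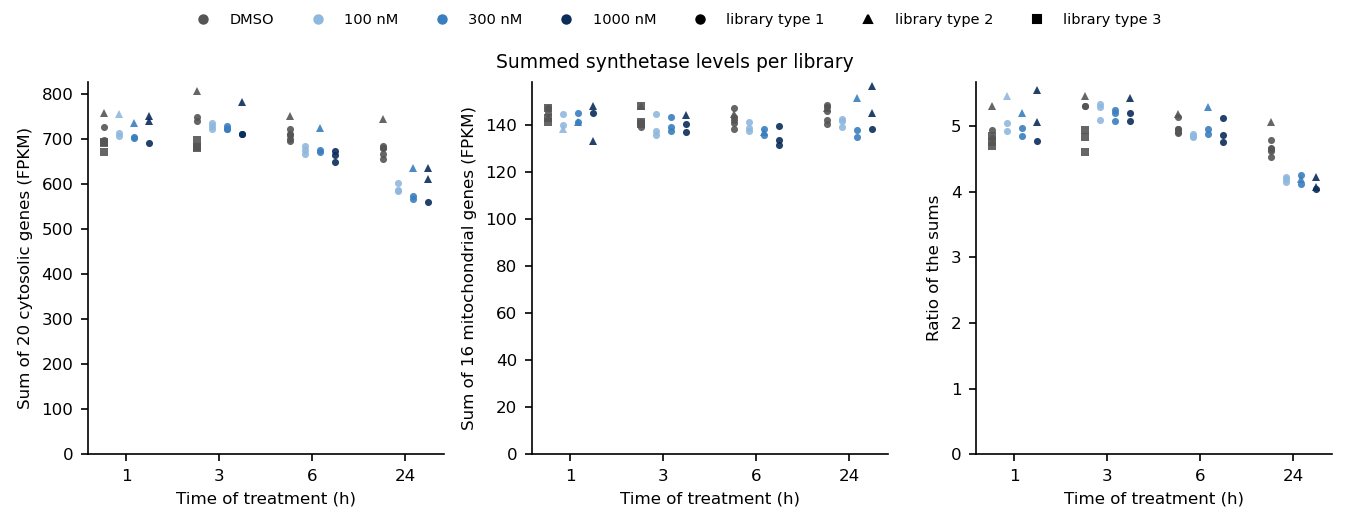
Summed FPKM of the 20 cytosolic and the 16 mitochondrial members and their ratio in each of the 60 libraries, by time and dose (colours), with 1 point per library and its shape for the library type. At 24 h the ratio of the treated libraries (4.04 to 4.26) lies below that of the DMSO libraries (4.53 to 5.07).

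Set side by side by amino acid, the genes form 17 pairs of a cytosolic and a mitochondrial member, with EPRS in 2 pairs (EARS2 and PARS2) and FARS2 in 2 pairs (FARSA and FARSB). At 100 nM 24 h the cytosolic member alone was called in 8 pairs, the mitochondrial alone in 1 (methionine) and neither in 8. At 300 nM the cytosolic member alone was called in 10 pairs, the mitochondrial alone in 1 (glutamate), both lower in 2 (methionine and asparagine) and neither in 4. At 1000 nM 6 pairs had the cytosolic call alone, 3 the mitochondrial call alone and 3 neither, where 34.7% of all genes were called (30.7% at 300 nM and 19.7% at 100 nM). Both were lower in the methionine and threonine pairs. Opposite calls were made in the cysteine, histidine and isoleucine pairs, where CARS rose and CARS2 fell, HARS fell and HARS2 rose, and IARS fell and IARS2 rose. Of the pairs with both members called, the HARS2, IARS2 and TARS2 calls were not made within the first library type. The difference between the members of a pair was not tested.

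**Figure D4:**
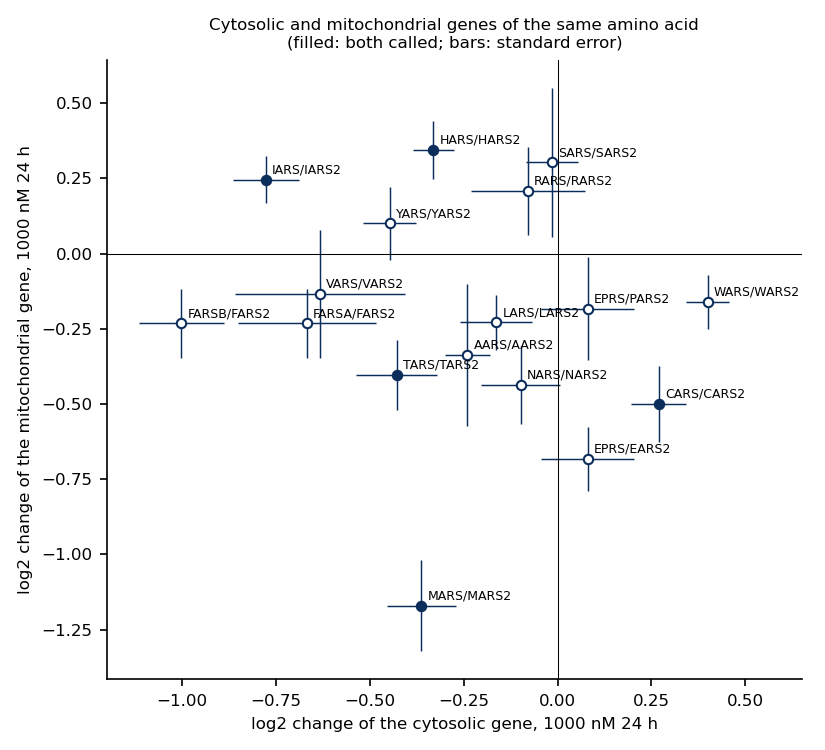
Log2 change at 1000 nM 24 h of the mitochondrial member of each of the 17 pairs (vertical axis) against that of its cytosolic member (horizontal axis), with bars for the standard errors and filled points where both members were called. The methionine pair lies lowest, at -1.17 for MARS2 and -0.36 for MARS, and the isoleucine pair has IARS at -0.78 and IARS2 at 0.25.

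The doses were compared with each other at each time. At 24 h 1000 nM against 100 nM called 2 of 36 members, both lower and both mitochondrial, where 4.94% of all genes were called, 2.86% lower and 2.08% higher. MARS2 was 0.67 lower (-0.67 ± 0.18, adjusted p 0.0149) and EARS2 0.48 lower (-0.48 ± 0.12, adjusted p 0.012). FARSB was at -0.40 (adjusted p 0.061) and HARS2 at 0.35 (adjusted p 0.0563), both short of the threshold. The MARS2 call was lost without 100 nM 24 h replicate 2 (0.0753) and without 1000 nM 24 h replicate 1 or 3 (0.0546 and 0.146). The EARS2 call was lost within the first type (0.0767), without 100 nM replicate 1 or 2 (0.0561 and 0.0511) and without 1000 nM replicate 1 (0.147). With type terms 5 members were called lower, and without 1000 nM 24 h replicate 2, 4 were called lower and 4 higher. At 1, 3 and 6 h 0 members differed between these doses in the limma fit, where 0%, 0% and 0.0189% of all genes were called.

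Whether the 1000 nM effect differed from one time to the next was tested as an interaction, with each time set against its own DMSO libraries. From 1 to 3 h and from 3 to 6 h 0 members were called, where 0.0504% and 0.227% of all genes were called. From 6 to 24 h 7 members were called, 6 lower and 1 higher, where 15.1% of all genes were called (6.95% lower and 8.16% higher). FARSB was lower by 0.91 ± 0.16 on the log2 scale between the effects (-0.91, adjusted p 2.72e-05) and IARS by 0.68 ± 0.12 (-0.68, adjusted p 5.09e-05). EARS2 had -0.51 ± 0.15 (adjusted p 0.013), YARS -0.38 ± 0.10 (0.00586), AARS -0.25 (0.0359) and HARS -0.24 (0.0223). WARS had 0.32 ± 0.08 (0.00422). MARS2, which had already been called at 6 h, had -0.59 ± 0.21 with an adjusted p of 0.0524. The AARS call was lost without any one of 8 libraries (1000 nM 6 h replicates 1 to 3, 1000 nM 24 h replicate 2, DMSO 6 h replicate 5 and DMSO 24 h replicates 3, 5 and 6). The HARS call was lost within the first type (-0.13, adjusted p 0.217), without 1000 nM 6 h replicate 1 or 2 and without 1000 nM 24 h replicate 3, and the EARS2 call without 1000 nM 24 h replicate 1 (0.0849). Within the first type 10 members were lower and 2 higher, and without DMSO 24 h replicate 2, 11 were lower and 3 higher.

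**Figure D5:**
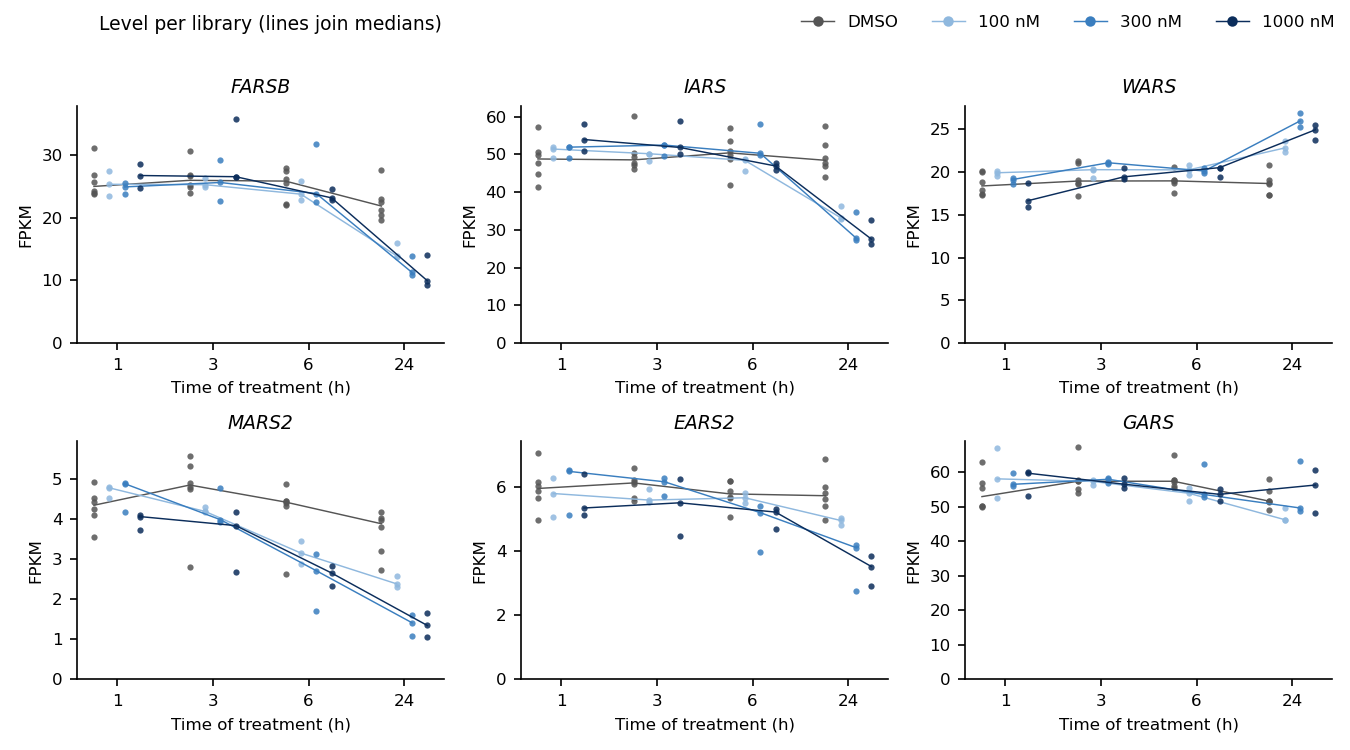
FPKM of FARSB, IARS, WARS, MARS2, EARS2 and GARS at 1, 3, 6 and 24 h in DMSO and at the 3 doses, with 1 point per library and lines through the group medians. FARSB and IARS separate from DMSO at 24 h, the treated medians of MARS2 lie below DMSO at 6 and 24 h, and WARS lies above DMSO at 24 h.

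In DMSO alone, 3 of 36 members differed between 24 and 1 h, where 18.2% of all genes were called (8.45% lower and 9.78% higher). HARS fell from 13.6 to 15.7 FPKM (median 14.3) at 1 h to 11.1 to 12.4 (median 11.9) at 24 h, a change of -0.27 ± 0.04 with an adjusted p of 1.15e-05. PARS2, the mitochondrial proline enzyme, rose from 1.80 to 2.45 FPKM to 2.87 to 3.86, a change of 0.60 ± 0.14 with an adjusted p of 0.00144. TARS2 rose from 5.66 to 8.65 FPKM to 8.10 to 9.63, a change of 0.29 ± 0.09 with an adjusted p of 0.0244, and its ranges overlap. Of the 6 DMSO libraries at 1 h, 3 were of the third type, against 0 of 6 at 24 h. The counts of lower members went from 1 to 7 with type terms and to 8 within the first type. Calls over all genes were not counted for this comparison in those settings, so a rise across the whole table cannot be told apart. Without DMSO 1 h replicate 3, DMSO 24 h replicate 2 or DMSO 24 h replicate 6 the lower members numbered 4, 3 and 2, and without DMSO 24 h replicate 2 the higher members went from 2 to 1.

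Of 26 tested genes of tRNA transcription and maturation, which act beside the synthetases, 11 fell and 2 rose at 1000 nM 24 h, where 34.7% of all genes were called, 15.6% lower and 19.1% higher. POLR3G, a subunit of RNA polymerase III, measured 2.16 to 3.59 FPKM in DMSO with a median of 2.89, against 1.01, 0.736 and 0.983 FPKM. METTL1, which methylates tRNA, measured 4.43 to 5.52 FPKM with a median of 5.13, against 1.89, 3.01 and 1.36 FPKM. Neither overlapped with DMSO. POLR3G fell by 1.26 (adjusted p 9.54e-07), METTL1 by 1.16 (2.6e-09) and its partner WDR4 by 1.23 (2.43e-05). Among 9 mitochondrial translation factors 1 fell and 2 rose, a share near that of all genes, with the elongation factor TUFM at -0.65 (adjusted p 0.00071) and the initiation factor MTIF3 at 0.67 (0.00106). Of 5 cytosolic elongation factor genes 1 fell, EEF1B2 by 0.28 (adjusted p 0.00324). Neither DTD1 (-0.06) nor DTD2 (-0.29), which clear wrongly charged tRNA, was called. TARSL2, a synthetase gene outside the list of 36, was not called either, at 0.28.

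MYC, a transcription factor of growth genes, fell from 3 h on, a time at which no member was called. It was not called at 1 h and was at -0.41, -0.50 and -0.67 at 3 h (adjusted p 0.187, 0.0137 and 8.52e-05), at -0.55, -0.96 and -0.85 at 6 h (0.000745, 2.25e-09 and 5e-08) and at -0.33, -0.67 and -0.81 at 24 h (0.0178, 5.8e-07 and 7.01e-09). At 24 h MYC measured 25.6 to 37.0 FPKM in DMSO with a median of 34.5, against 16.8, 20.1 and 18.0 FPKM at 1000 nM. ATF4 was not called at any dose or time. At 24 h it measured 23.8 to 37.4 FPKM in DMSO with a median of 36.6, against 22.4, 33.1 and 27.4 FPKM at 1000 nM, a change of -0.31 with an adjusted p of 0.076. Of the 13 tested genes of the ATF4 response, ATF4 included, 3 fell and 2 rose at 1000 nM 24 h, a share near the 34.7% of all genes called. PSAT1, an enzyme of serine synthesis, measured 31.3 to 43.4 FPKM in DMSO with a median of 34.5, against 12.5, 11.1 and 14.5 FPKM, and fell by 1.43 (adjusted p 4.59e-19). CTH, of cysteine synthesis, fell by 0.54 (0.00351) and the lipoprotein receptor VLDLR rose by 0.83 (6.26e-09). How these genes relate to the synthetase genes was not tested.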

How the data were processed

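RNA was poly(A) selected and sequenced as stranded single-read libraries, per the labels' protocols. Per the submitters' processing notes, STAR 2.4.2a, featureCounts 1.4.6-p2 (Subread), DESeq2 and hg19 were used, in roles the notes do not give. For the annotation release, the sources used here give none. The authors deposited 1 table of log2 values of FPKM plus 1, and each value was converted back to FPKM, the unit for which the tests had been written. Whole reads were recovered from the steps of the FPKM, and of the values above 0, 100% came out whole to within 0.01 read. No columns were without a sample, and no 2 libraries held the same values. Reads carry no molecular identifiers.

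The test covered 15866 genes, those reaching 1 FPKM in 3 or more libraries. limma 3.58.1 (R 4.3.3, with trend and robust variances) was fitted to log2(FPKM + 0.5) with 1 mean for each of the 16 groups over all 60 libraries, which left 44 residual degrees of freedom, and p-values were adjusted by Benjamini-Hochberg over all genes tested within each comparison. A gene was called at an adjusted p under 0.05. The comparisons were each dose with DMSO of the same time, 1000 nM with 100 nM, the 1000 nM effect at each time with that at the time before, and the DMSO groups of 24 and 1 h. The count test on recovered reads was limma's voom, as an alternative. The fit was tested on simulated data with the depths of these libraries, where the share of false calls was above the nominal rate, so the adjusted p-values may be too small. Tables were handled in Python 3.11.15.

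Values in every group are given for 18 members: the 3 lowest and 3 highest changes at 1000 nM 24 h in the complex, outside it and among the mitochondrial members, GARS, KARS, members called by 6 h and members called higher at 24 h. In other lists up to 3 genes with the largest change are named, and MYC and ATF4 always. The other members named singly (YARS, TARS, HARS, AARS, NARS, LARS, NARS2, TARS2, LARS2 and PARS2) were called in a comparison and were named after their values were seen. The members and lists were chosen with earlier results of these data known, so no p-value is given over the list. Alternatives were pseudocounts of 0.1 and 1, no filter, median-of-ratios scaling, array weights, library type terms, the first type only, no library under 2 M reads, voom, only the groups compared, and leaving out each library in turn. Type terms with array weights were added after seeing the data.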

Additional observations from a re-analysis of the deposited data

Results flagged for a closer look

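In groups of 6 DMSO libraries, 76 sets of levels of the 18 named members and the ratio of class sums were examined for a library far from the others, and 21 had one whose gap to its nearest neighbour, as a share of the range, was above 0.625. Chance gives this in about 1 in 20 groups. In all 21 the library was the one of the second type in its group, which is 1 of the 4 such libraries in DMSO.

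In DMSO 1 h replicate 3, DARS was high at 53.5 FPKM (35.4 to 41.2 in the others), while QARS was low at 29.6 FPKM (42.7 to 45.2), MARS at 12.4 (15.2 to 16.4), FARSA at 35.2 (50.6 to 59.7) and VARS at 21.4 (33.9 to 39.3). In DMSO 3 h replicate 6, DARS was high at 56.3 FPKM (34.8 to 41.0), GARS at 67.2 (54.1 to 57.9) and IARS at 60.3 (46.2 to 50.3). QARS was low there at 35.4 FPKM (43.6 to 47.7), VARS at 24.2 (33.5 to 38.5) and MARS2 at 2.79 (4.75 to 5.58). DARS, QARS and VARS were far off in both of these groups.

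In DMSO 6 h replicate 5, GARS was high at 64.95 FPKM (55.5 to 57.7 in the others), and QARS was low at 34.6 FPKM (44.5 to 47.8), MARS at 12.8 (15.9 to 17.1), MARS2 at 2.63 (4.33 to 4.89) and SARS2 at 0.315 (0.791 to 0.912). In DMSO 24 h replicate 2, with 0.475 M reads, KARS was high at 54.4 FPKM (38.9 to 42.1) and CARS at 9.26 (6.03 to 6.85). QARS was low there at 27.5 FPKM (42.4 to 49.0), MARS at 11.2 (14.4 to 15.9), and SARS2 had 0 reads (0.611 to 0.929 FPKM in the others). At that depth a floor of 3 SARS2 reads is 1.95 FPKM, so no difference in SARS2 was detectable, although it was flagged. What set these libraries apart was not tested.

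The effect of 1000 nM differed between 24 and 6 h in 7 members by the limma interaction test, with FARSB at -0.91, IARS at -0.68, EARS2 at -0.51, YARS at -0.38 (-0.375), AARS at -0.25, HARS at -0.24 and WARS at 0.32 on the log2 scale.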

How the results depend on the processing

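No paired analysis was possible because the titles number the libraries singly and the groups share no replicate numbers. Of the alternative values for single members, 659 kept direction and side of the threshold, 68 lost a call, 8 gained one and 13 turned sign. Pseudocounts of 0.1 and 1 moved no count of calls by over 1.5 times. Calls over all genes moved with the other settings. At 100, 300 and 1000 nM 24 h they numbered 3122, 4864 and 5506 in the main fit over all 60 libraries. They were 6392, 8323 and 8715 with array weights, 4855, 7080 and 7535 with type terms, and 6497, 9081 and 8597 with both. Without the shallow libraries they were 2960, 4305 and 6309, with voom 3296, 6250 and 5177, and with only the groups compared 1966, 2695 and 2987. In the first type alone they were 5660 and 6798 at 100 and 300 nM. Between doses, between effects and in DMSO over time, calls over all genes were counted in the main fit only. For the counts below, unless another comparison is named, the comparison is with DMSO, and the cause of a difference was not tested.

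With array weights 19 members were called at 1000 nM 1 h, and 8, 6 and 7 at 100, 300 and 1000 nM 3 h. Over all genes 6380 were called at 1000 nM 1 h, and 3694, 3059 and 3803 at 3 h. Lower members at 6 h numbered 2, 3 and 4, where 1178, 2109 and 2151 of all genes were called in either direction. At 24 h 14 cytosolic members were lower and 3 higher at 100 nM, 5 cytosolic members were higher at 1000 nM, and 5 and 8 mitochondrial members were lower at 100 and 300 nM. For 1000 against 100 nM, 14 members were lower and 8 higher at 24 h, with 5 called at 1 h and 1 at 3 h. The effect change from 1 to 3 h called 7 members and that from 3 to 6 h 6, and from 6 to 24 h 17 were lower and 9 higher. In DMSO over time 10 were lower. QARS turned to -0.061 at 1000 nM 24 h.

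With library type terms 2, 3 and 2 members were lower at 6 h, where 345, 742 and 738 of all genes were called. At 24 h 2 cytosolic members were higher and 2 mitochondrial lower at 100 nM, and 5 mitochondrial were lower at 300 nM. For 1000 against 100 nM 5 were lower, and in DMSO over time 7 were lower. EPRS turned to -0.088 and GARS to -0.046.

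In the first type only, 2, 2 and 3 members were lower at 6 h, where 535, 767 and 1222 of all genes were called. At 24 h 14 cytosolic members were lower and 3 higher at 100 nM, 5 mitochondrial members were lower at 100 nM and 5 at 300 nM, and 0 mitochondrial were higher at 1000 nM. For 1000 against 100 nM 1 was higher at 24 h. The effect change from 3 to 6 h called 1, and from 6 to 24 h 10 were lower and 2 higher. In DMSO over time 8 were lower. DARS turned to -0.074, EPRS to -0.19 and GARS to -0.097.

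With type terms and array weights together 3, 5 and 5 members were lower at 6 h and 1 was higher at 300 nM. Over all genes 1287, 2641 and 2452 were called at 6 h. At 24 h 14 cytosolic members were lower and 3 higher at 100 nM, 4 cytosolic were higher at 300 nM, 5 and 9 mitochondrial were lower at 100 and 300 nM, and 1 mitochondrial was higher at 1000 nM. For 1000 against 100 nM 9 were lower and 2 higher. From 6 to 24 h 16 were lower and 4 higher, and in DMSO over time 11 were lower and 5 higher. DARS turned to -0.026, EPRS to -0.13 (called lower, adjusted p 0.0211) and GARS to -0.069.

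Without the libraries under 2 M reads 2 cytosolic members were higher at 100 nM 24 h and 5 mitochondrial lower at 300 nM. For 1000 against 100 nM 4 were lower and 1 higher, from 6 to 24 h 11 were lower and 3 higher, and in DMSO over time 3 were lower. With voom on the recovered reads 4 and 8 mitochondrial members were lower at 100 and 300 nM 24 h and 0 were higher at 1000 nM. From 6 to 24 h 10 were lower and 2 higher, and in DMSO over time 2 were lower. EPRS turned to -0.0084 and GARS to -0.024. Median-of-ratios scaling gave 5 lower mitochondrial members at 300 nM 24 h.

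With only the groups compared, which leaves fewer libraries, 0 members were lower at 300 and 1000 nM 6 h. Over all genes 74 and 117 were called there. At 24 h 6 cytosolic members were lower at 300 and 6 at 1000 nM, 1 cytosolic was higher at each of these, and at 1000 nM 2 mitochondrial were lower and 0 higher. The comparisons between doses, between effects and in DMSO over time were not run under this setting.

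Leaving out 1 library at a time gave 0 calls throughout at 1 and 3 h and at 100 nM 6 h, and 0 to 1 lower at 300 and 1000 nM 6 h. At 24 h the lower cytosolic members numbered 5 to 9, 9 to 12 and 9 to 10 at 100, 300 and 1000 nM and the higher ones 1 to 2, 2 to 2 and 2 to 3. The lower mitochondrial members numbered 0 to 1, 3 to 4 and 3 to 7, and at 1000 nM 0 to 2 were higher. For 1000 against 100 nM 0 to 4 were lower and 0 to 4 higher, from 6 to 24 h 4 to 11 were lower and 1 to 3 higher, and in DMSO over time 1 to 4 were lower and 1 to 3 higher. At 1000 nM 24 h the log2 change of EPRS ran from -0.038 (without 1000 nM replicate 3) to 0.25 and that of GARS from -0.015 (without the same library) to 0.15.

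Shallow libraries limit the low mitochondrial members most, since MARS2 rested on 4 reads and SARS2 on 0 in DMSO 24 h replicate 2. The library types are unevenly spread over the 24 h groups, with 1 library of the first type at 1000 nM and 1 of the second type in DMSO, so a comparison within a type rests on 1 library on one side.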
